A study of Mus musculus with 8 samples.

Results

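The genes described here are regulators and surface markers of plasma cells, the antibody-secreting end stage of the B cell lineage: Prdm1, Xbp1, Sdc1, Eaf2, Ell2, Pou2af1, Slamf7 and Cd28. They were taken by name, with every probe set that carries 1 of these 8 symbols and no other, which gave 16 of the 45101 probe sets on the array, for 8 of 18194 genes named by a single symbol. RNA came from splenic B cells of irf4-/- mice (Irf4 null, 4 arrays) and of their irf4+/+ littermates (wild type, 4 arrays), all C57BL/6 and 12 weeks old, and was hybridised to 1 Affymetrix mouse array per sample. In both genotypes the cells were enriched by removing other spleen cells with magnetic beads, and no stimulation of the cells is described. Neither the deleted part of Irf4 nor a separate animal for every array is stated, so part of the spread behind the p-values may be technical. The study compared RNA between the genotypes, and for these genes the question is which of them depend on Irf4 before any stimulus.

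IRF4 is a transcription factor that B cells need to become plasma cells. In the usual account of that step, IRF4 acts together with Blimp-1, the repressor encoded by Prdm1, which silences the B cell program, and XBP1 then enlarges the secretory apparatus. ELL2 and EAF2 belong to the factors that help RNA polymerase II elongate, and ELL2 favours the secreted form of immunoglobulin heavy chain RNA. Pou2af1 encodes OCA-B, the coactivator of octamer-binding factors in B cells. Syndecan-1 (CD138, from Sdc1), SLAMF7 and CD28 are surface proteins of plasma cells, but SLAMF7 is also found on NK cells and CD28 is the costimulatory receptor of T cells.

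In Irf4 null B cell preparations 2 of the 8 genes fell, Sdc1 and Eaf2, and none rose. Sdc1 was 6.44-fold and Eaf2 3.60-fold lower, on the log2(signal + 16) scale used for all fold changes. The other 6 genes, Prdm1, Xbp1, Ell2, Pou2af1, Slamf7 and Cd28, did not pass the test. Of the 16 probe sets 14 were bright enough to be tested, 4 of them fell (3 of Sdc1 and the 1 of Eaf2) and 10 did not pass (limma, adjusted p below 0.05). At an unadjusted p below 0.05, 5 were lower and 1 was higher, against 8.01% lower and 9.06% higher over all probe sets tested. Over all 27022 probe sets tested, 3.52% passed, 1.51% as lower and 2.01% as higher in Irf4 null. Of all 11802 genes tested at their brightest probe set, 4.37% passed. The remaining 2 probe sets, 1 of Sdc1 and 1 of Ell2, were below the filter on dim signals.

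**Figure D1:**
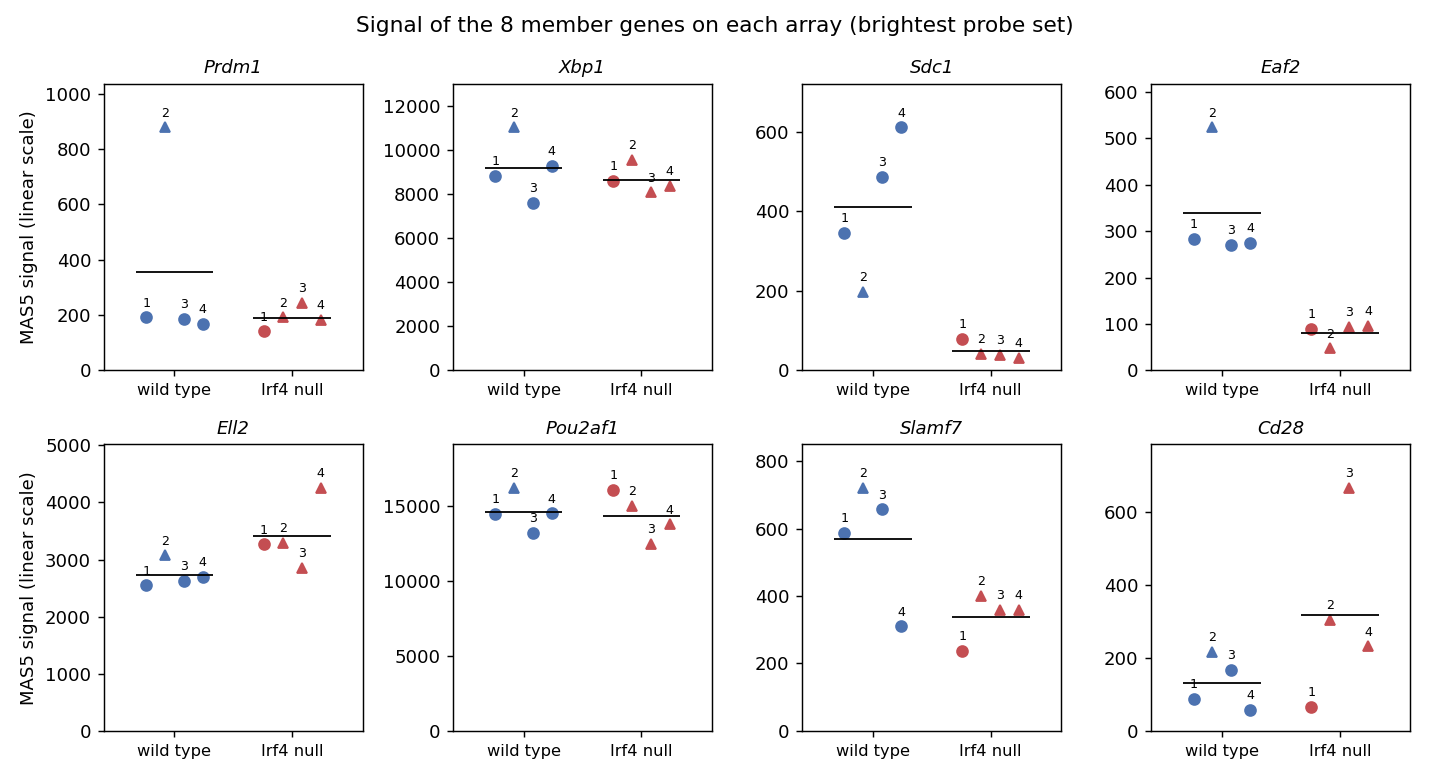
Signal of each gene on every array (vertical axis, MAS5 signal on a linear scale, from 0; brightest probe set). Points are arrays, numbered by replicate, circles are Xist-high and triangles Xist-low arrays, and bars are group means; Sdc1 and Eaf2 are separated by genotype, and Prdm1 stands at 878 on wild-type array 2.

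The arrays differ in ways other than genotype. Xist, the RNA of the inactive X chromosome of females, read 17119 to 19652 on 4 arrays (Xist-high: Irf4 null array 1 with wild-type arrays 1, 3 and 4) and 49.2 to 94.8 on the other 4 (Xist-low: Irf4 null arrays 2 to 4 with wild-type array 2). The labels give no sex. Eif2s3y, a gene of the Y chromosome, read 3.31 to 25.4 on the Xist-high and 3220 to 4530 on the Xist-low arrays. By both genes the Xist-high arrays read as female and the Xist-low arrays as male, so sex is unevenly split between the genotypes. Markers of T cells, NK cells, neutrophils, other myeloid cells, erythroid cells and platelets, 46 genes in all, had a mean log2 value of 8.04 to 8.42 on the Xist-high and 9.06 to 9.83 on the Xist-low arrays. B cell markers, 8 genes, had a mean log2 value of 12.61 to 12.77 on the Xist-high and 12.42 to 12.54 on the Xist-low arrays. The labelled cell type is thus borne out on all 8 arrays by the mean of its defining genes, but this mean also splits with Xist. Of these 8, Fcer2a fell in Irf4 null (limma, adjusted p = 0.003). Genes of other cells were bright too, with S100a8 at 30012 on Irf4 null array 2 and Lyz2 at 21001 on wild-type array 2. Results that move with the Xist split are given with it, as a term in the fit and within each set of arrays. With the term, 3 of the 14 probe sets passed (2.36% over all probe sets), within the Xist-high arrays 4 (1.19%) and within the Xist-low arrays 2 (0.433%). Each subset has a single array in 1 arm, assumed to vary like the others, so its values are given as descriptions and support no call. With this split, the estimate with the term is the average of the 2 subset estimates. It therefore leans on the same lone arrays, Irf4 null array 1 and wild-type array 2. Irf4 itself read 1720 to 2341 in wild type and 244 to 315 in Irf4 null at its brighter probe set. In RNA from whole preparations, fewer cells of a type and less RNA per cell cannot be told apart.

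Sdc1 and Eaf2 fell while the other 6 genes did not pass, so the sequences before their start sites were set side by side. RefSeq (GRCm38.p6) gave windows from 250 bases before to 50 bases after a start for 7 of the 8 genes, 9 windows in all. The 250 bases upstream of the start are shown for Sdc1, the gene with 3 probe sets that fell, and for the 3 genes whose windows held a searched motif, 5′ to 3′ on the strand of the gene, with matches in capitals. The windows are chr12:8771146-8771395 (plus strand) for Sdc1, chr1:171649000-171649249 (minus) for Slamf7, chr10:44458749-44458998 (minus) for Prdm1 and chr9:51213440-51213689 (plus) for Pou2af1.
Sdc1: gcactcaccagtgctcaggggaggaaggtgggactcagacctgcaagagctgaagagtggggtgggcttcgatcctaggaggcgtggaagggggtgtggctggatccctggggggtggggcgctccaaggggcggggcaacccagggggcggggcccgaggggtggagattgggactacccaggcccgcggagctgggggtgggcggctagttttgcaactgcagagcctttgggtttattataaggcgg
Slamf7: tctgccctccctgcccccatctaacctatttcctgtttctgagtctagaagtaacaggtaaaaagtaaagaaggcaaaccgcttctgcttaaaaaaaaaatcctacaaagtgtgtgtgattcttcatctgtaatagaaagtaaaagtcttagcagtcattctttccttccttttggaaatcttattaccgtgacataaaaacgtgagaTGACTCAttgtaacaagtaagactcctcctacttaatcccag
Prdm1: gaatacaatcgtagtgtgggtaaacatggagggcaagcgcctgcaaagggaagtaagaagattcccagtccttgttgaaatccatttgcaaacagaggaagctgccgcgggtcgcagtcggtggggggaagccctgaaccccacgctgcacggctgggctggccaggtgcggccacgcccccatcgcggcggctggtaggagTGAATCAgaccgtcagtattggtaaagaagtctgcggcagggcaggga
Pou2af1: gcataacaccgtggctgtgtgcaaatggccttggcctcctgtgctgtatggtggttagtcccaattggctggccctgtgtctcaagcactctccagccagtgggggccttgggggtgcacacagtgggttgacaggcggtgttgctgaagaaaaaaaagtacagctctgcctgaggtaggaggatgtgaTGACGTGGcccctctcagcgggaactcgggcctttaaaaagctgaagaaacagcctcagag
Both strands of the full windows were searched for the core of the interferon response element (GAAA, any 2 bases, GAAA), the composite element of Ets factors and IRF4 (GGAA, any 2 bases, GAAA), a composite element of AP-1 and IRF4 (GAAA followed directly by TGANTCA), and the octamer ATTTGCAT. None of these letters occurred in the 9 windows. Among all 32851 windows of the same length they occurred in 3.44%, 2.72%, 0.12% and 1.74%. The AP-1 site TGANTCA (in 7.81% of all windows; it is also the second part of the AP-1 and IRF4 element) and TGACGTGG, the core of an element bound by XBP1 (0.68%), were added after the sequences had been read. TGACTCA starts 42 bases upstream of the Slamf7 start, TGAATCA 48 bases upstream of the Prdm1 start, and TGACGTGG 61 bases upstream of the Pou2af1 start. The Sdc1 stretch shown is 66.0% G and C and that of Slamf7 38.0%. Eaf2 has 3 windows, at 50.4%, 71.6% and 40.8% G and C, and none held a searched motif; the files do not say which start its probe set reads. These are matches of letters in short windows and bear on no binding.

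Syndecan-1 is the surface proteoglycan by which plasma cells are commonly gated. Its brightest probe set, 1437279_x_at, read 345, 198, 486 and 611 on wild-type arrays 1 to 4 and 79.0, 41.7, 37.8 and 31.8 on Irf4 null arrays 1 to 4. Every wild-type array was above every Irf4 null array, the lowest of them wild-type array 2. The log2 fold change was -2.69 ± 0.33 (SE, n = 4 and 4; 95% interval -3.41 to -1.97; limma, adjusted p = 0.00137).

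The second probe set, 1415943_at, read 294, 140, 293 and 407 on the 4 wild-type arrays, against 45.1, 40.2, 54.7 and 47.1 on the 4 Irf4 null arrays. Its groups did not overlap, wild-type array 2 was again the lowest of its group, and it fell by 2.17 ± 0.27 on the log2 scale (limma, adjusted p = 0.00159). The third, 1415944_at, read 195, 72.8, 155 and 208 on the 4 wild-type arrays, against 53.3, 58.5, 37.2 and 63.4 on the 4 Irf4 null arrays. The groups did not overlap, but wild-type array 2 lay close to the highest Irf4 null array, and the fall was 1.26 ± 0.29 (limma, adjusted p = 0.0395). That call is the least secure of the 4. It passed in 1 of the 8 fits that left out an array, the one without wild-type array 2 (-1.55, adjusted p = 0.00168), with adjusted p up to 0.126 in the others, and it did not pass with the Xist-high term (-0.96, adjusted p = 0.133).

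The untested probe set, 1448158_at, read 29.4, 37.6, 11.8 and 13.0 on the 4 wild-type arrays, against 10.8, 9.25, 9.43 and 4.29 on the 4 Irf4 null arrays. Its groups did not overlap either, but here wild-type array 2 was the highest of its group. Among the 14 tested probe sets the groups did not overlap for 4, each lower in Irf4 null; over all probe sets tested this direction without overlap was found for 5.33%, and either direction for 10.8%. The suffix _x_at marks a probe set that may bind other transcripts, and the mean of the 3 tested probe sets gave -2.04 ± 0.27 (limma, adjusted p = 0.0028).

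The Irf4 null mean of Sdc1, 47.6 ± 21.4 (SD), lies near the dimmest level tested, a signal of 42.9, and no detection calls came with the table, so the size of the fold is uncertain. Sdc1 passed when the Xist-high term was added (-2.18 ± 0.22, limma, adjusted p = 0.000487), a fit that leans on Irf4 null array 1 and wild-type array 2. Within the Xist-high arrays, where Irf4 null array 1 is the lone Irf4 null array, it was at -2.35 (adjusted p = 0.00571), and within the Xist-low arrays, where wild-type array 2 is the lone wild-type array, at -2.01 (adjusted p = 0.084). Over 23 alternatives the adjusted p of Sdc1 ran from 0.000106 to 0.084.

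**Figure D2:**
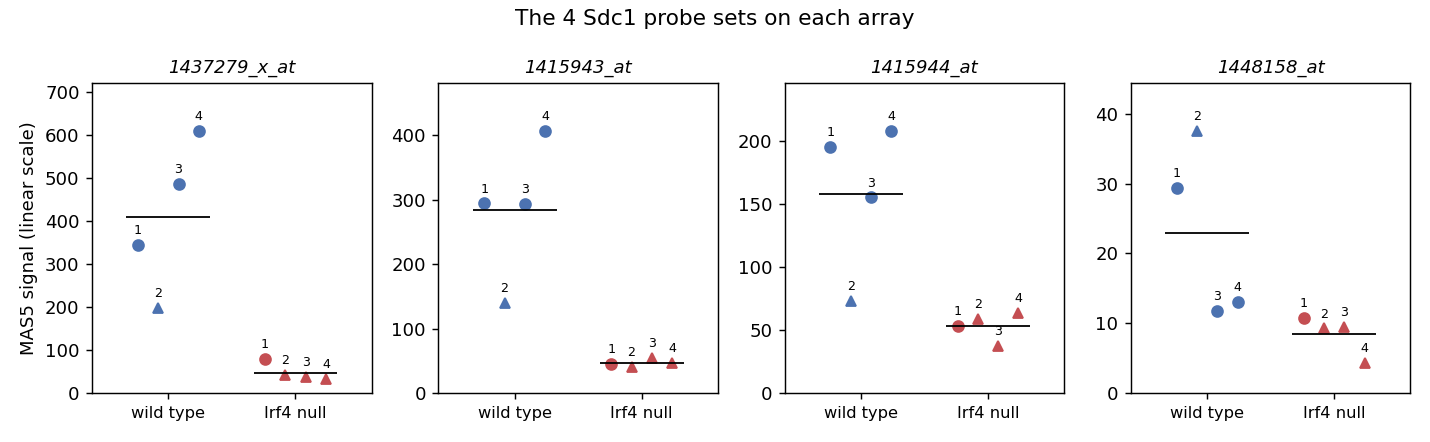
The 4 Sdc1 probe sets on every array (vertical axis, MAS5 signal on a linear scale, from 0; symbols as for the 8 genes). Wild type lies above Irf4 null in each, and wild-type array 2 is the lowest wild-type array in the first 3 and the highest in 1448158_at.

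Among the transcription regulators, Eaf2 was the gene that fell. EAF2 binds ELL proteins and stimulates their elongation activity. Its single probe set, 1422120_at, read 283, 524, 271 and 275 on the 4 wild-type arrays, against 89.0, 47.2, 93.7 and 94.7 on the 4 Irf4 null arrays. The groups were far apart. Wild-type array 2 was the highest array for Eaf2, where it was the lowest wild-type array for the tested Sdc1 probe sets, and Irf4 null array 2 was the lowest. On the log2 scale the change was -1.85 ± 0.25 (SE; 95% interval -2.40 to -1.29; limma, adjusted p = 0.00258). Eaf2 passed in all 23 alternatives run, with adjusted p between 0.00109 and 0.049. Of these, the fits to either Xist subset alone have 1 array in an arm and add little: Eaf2 was at -1.48 with Irf4 null array 1 as the lone Irf4 null array, and at -2.56 with wild-type array 2, its highest array, as the lone wild-type array. Without wild-type array 2 the fall was 1.62 (limma, adjusted p = 0.00146).

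Ell2, the partner of Eaf2 in elongation, did not pass after adjustment. The probe set 1450744_at read 2548, 3072, 2633 and 2698 on the 4 wild-type arrays, against 3266, 3285, 2855 and 4252 on the 4 Irf4 null arrays. Irf4 null array 3 lay within the wild-type range and the other 3 above it. The log2 fold change was 0.31 ± 0.12 (95% interval 0.05 to 0.56; limma, adjusted p = 0.198). A fall of the size seen for Eaf2 lies outside this interval. The second Ell2 probe set, 1458569_at, was at 1.55 to 9.33 on every array and was not tested.

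Of the other 13 tested genes of the elongation machinery (ELL and EAF relatives, AF4 family scaffolds, P-TEFb and its inhibitor), Mllt3 rose and 12 did not pass, and the list median was -0.08. Mllt3, which encodes the AF9 reader of acetylated histones, rose by 0.66 ± 0.15 (limma, adjusted p = 0.0414), from signals of 305, 292, 393 and 373 to 517, 424, 653 and 614. It passed in 2 of the 8 fits that left out an array, those without wild-type array 2 and without Irf4 null array 2, and not in the other 6 (adjusted p up to 0.128); it did not pass with the Xist-high term (adjusted p = 0.0716). Over all 11802 genes, at 1 probe set per gene, 2.67% were called higher and 1.7% lower, with a median log2 fold change of 0.025.

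Prdm1 did not pass, and 1 wild-type array set its mean. The probe set 1420425_at read 191, 878, 184 and 168 on the 4 wild-type arrays, against 140, 191, 242 and 183 on the 4 Irf4 null arrays. Apart from wild-type array 2 the groups overlapped, with Irf4 null array 1 below and Irf4 null array 3 above the other wild-type arrays. Prdm1 had a log2 fold change of -0.51 ± 0.44 (95% interval -1.47 to 0.45; limma, adjusted p = 0.621). Without wild-type array 2 it was 0.04 ± 0.18 (adjusted p = 0.937).

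Within the Xist-low arrays, which compare wild-type array 2 alone with 3 Irf4 null arrays, Prdm1 was lower by a log2 fold change of -2.02 (limma, adjusted p = 0.0191). Within the Xist-high arrays, which hold 3 wild-type arrays and 1 Irf4 null array, it was -0.34 (limma, adjusted p = 0.667). Adding the Xist-high term gave -1.18 ± 0.30 (limma, adjusted p = 0.0716). With the mean over the 46 other-cell markers as a covariate Prdm1 was at -1.34 (limma, adjusted p = 0.0361), and 2.19% of all probe sets passed in that fit. Among wild-type arrays this mean was 9.47 on wild-type array 2, where Prdm1 stands out, and 8.04 to 8.22 on the others. Over all 24 alternatives the adjusted p ran from 0.0191 to 0.937. The difference between the Xist-high and the Xist-low effect was 1.69 ± 0.32 (limma, adjusted p = 0.329); such a difference passed for 0 of 27022 probe sets, with 2038 at an unadjusted p below 0.05.

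Neutrophil markers, 9 genes, summed to 52920 on wild-type array 2 against 5563 to 7122 on the other wild-type arrays. On Irf4 null array 2 they summed to 72630, and Prdm1 read 191 there. The 12 monocyte, macrophage and dendritic cell markers summed to 35960 on wild-type array 2, the highest of the 8 arrays, and to 31640 on Irf4 null array 2. The part of these markers in the Prdm1 values was not tested beyond the covariate fit. On wild-type array 2 the joining chain gene Jchain read 12829 against 2222 to 2767 on the others, and Igha, the immunoglobulin A heavy chain, 13981 against 3123 to 5229. Prdm1, Eaf2, Jchain and Igha were thus highest on wild-type array 2, and the 3 tested Sdc1 probe sets were lower there than on the other wild-type arrays. Of the other members, Xbp1 (11043 at its brightest probe set), Pou2af1 (16195) and Slamf7 (720) were also highest there of the 8 arrays. Ell2 was highest on Irf4 null array 4 and Cd28 on Irf4 null array 3.

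Xbp1, whose protein drives the expansion of the endoplasmic reticulum in secretory cells, had 4 tested probe sets, and 0 passed by limma, with or without adjustment at 0.05. The brightest, 1437223_s_at, read 8816, 11043, 7600 and 9297 on the 4 wild-type arrays, against 8613, 9564, 8084 and 8381 on the 4 Irf4 null arrays. The Irf4 null arrays all lay within the wild-type range. The log2 fold change was -0.08 ± 0.11, with a 95% interval of -0.31 to 0.16 (limma, adjusted p = 0.781). The other 3 had log2 fold changes of -0.09, -0.05 and -0.03, and the widest of the 4 intervals ran from -0.48 to 0.42. Within the Xist-low arrays, with wild-type array 2 as the lone wild-type array, 3 of the 4 were at -0.35, -0.49 and -0.43. Within the Xist-high arrays these 3 were at 0.012, 0.10 and 0.12. The dimmest probe set, 1420012_at, went the other way, at -0.02 within the Xist-low and -0.35 within the Xist-high arrays. The array does not tell the spliced from the unspliced Xbp1 RNA here, since the files do not say which exons each probe set covers.

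XBP1 targets and other genes of the secretory apparatus were tested for 26 of 27 listed. The endoplasmic reticulum disulphide isomerase gene Pdia4 rose by 0.75 ± 0.13 (limma, adjusted p = 0.0106). The other 25 did not pass, so no gene fell, and the list median was 0.04. At an unadjusted p below 0.05 by limma, 3 were lower and 2 higher, Pdia4 among the latter. Pdia4 read 2612, 2939, 1813 and 2501 on the 4 wild-type arrays, against 4287, 4363, 3852 and 3886 on the 4 Irf4 null arrays, without overlap. Pdia4 also passed in the fit with the Xist-high term (limma, adjusted p = 0.0351), but not within the Xist-high (adjusted p = 0.0682) or the Xist-low arrays (adjusted p = 0.274). In that fit with the term, the stress sensor gene Atf6, singled out after its value was seen, was lower (-0.52, limma, adjusted p = 0.0351). It did not pass in the main fit (limma, adjusted p = 0.0555). Atf6 read 1678 on wild-type array 2 against 1217 to 1315 on the other wild-type arrays. Its log2 fold change was -0.30 within the Xist-high and -0.75 within the Xist-low arrays, where wild-type array 2 is the lone wild-type array.

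Pou2af1 did not pass either. Its probe set, 1416957_at, read 14457, 16195, 13201 and 14508 on the 4 wild-type arrays, against 16052, 14997, 12475 and 13776 on the 4 Irf4 null arrays, which is 14590 ± 1229 (SD) against 14325 ± 1545. The ranges nearly coincided. The log2 fold change was -0.03 ± 0.09, and the 95% interval, -0.23 to 0.17, was the narrowest of the 8 genes' brightest probe sets (limma, adjusted p = 0.914). Its sign turned in 4 of 24 alternatives and no call was made in any. The octamer-binding factor gene Pou2f2, the tested 1 of the 2 listed, stood at a log2 fold change of -0.26 ± 0.21 (adjusted p = 0.591).

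**Figure D3:**
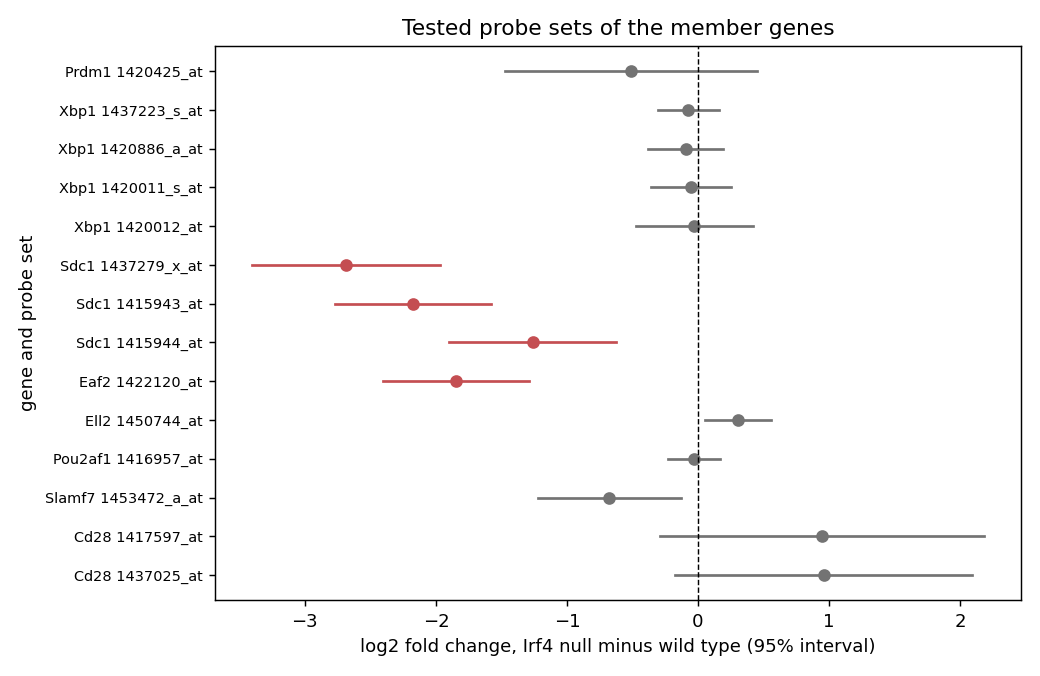
Log2 fold change of each tested probe set (horizontal axis, Irf4 null minus wild type) with its 95% interval from limma; red marks an adjusted p below 0.05. The 3 Sdc1 probe sets and Eaf2 are red and left of 0. The intervals of Xbp1 and Pou2af1 span 0, the widest of these from -0.48 to 0.42 at Xbp1 1420012_at, and Cd28 has the widest in the figure.

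Of the other surface markers, Slamf7 had lower values in Irf4 null that did not pass the test. The probe set 1453472_a_at read 587, 720, 657 and 310 on the 4 wild-type arrays, against 238, 400, 360 and 359 on the 4 Irf4 null arrays. Wild-type arrays 1, 2 and 3 lay above all Irf4 null arrays, and wild-type array 4 within their range. Its log2 fold change was -0.68 ± 0.25 (95% interval -1.22 to -0.13; limma, adjusted p = 0.18). Without wild-type array 4 it was -0.94 ± 0.18 and passed (limma, adjusted p = 0.0305).

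Adding the Xist-high term, the log2 fold change of Slamf7 was -0.96 ± 0.23 (limma, adjusted p = 0.0536), and over 24 alternatives the adjusted p ran from 0.0305 to 0.352, with the same sign in all 24. NK cells also carry SLAMF7. The 7 NK cell markers summed to 2275 to 7182 in wild type and 3959 to 12040 in Irf4 null; 1 of the 7, the perforin gene Prf1, was called higher, and all 7 were higher at an unadjusted p below 0.05. With the mean over all other-cell markers as a covariate, Slamf7 was at -1.01 (limma, adjusted p = 0.058). Of 9 tested SLAM family receptors and adaptors 0 passed by limma (3 did before adjustment, at p below 0.05), and the list median was 0.21. The adaptor gene Sh2d1a, which encodes SAP, stood at 1.32 ± 0.40 on the log2 scale (adjusted p = 0.105) and Cd48, a ligand of this family, at -0.30 ± 0.10 (adjusted p = 0.121). Sh2d1a was highest on Irf4 null array 3, as T cell markers were, and stood at 0.76 with the Xist-high term and 0.58 with the other-cell markers as a covariate.

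Cd28 differed widely between arrays of 1 genotype and did not pass. Its brighter probe set, 1417597_at, read 88.5, 215, 166 and 56.6 on the 4 wild-type arrays, against 66.4, 304, 664 and 231 on the 4 Irf4 null arrays. Irf4 null array 3 stood highest, and Irf4 null array 1 lay among the low wild-type arrays. The second, 1437025_at, read 53.8, 170, 120 and 59.8 on the 4 wild-type arrays, against 61.2, 205, 529 and 190 on the 4 Irf4 null arrays, with the same highest array. The log2 fold changes were 0.95 ± 0.56 and 0.96 ± 0.51 (limma, adjusted p = 0.437 and 0.384).

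T cell markers were highest on the same array as Cd28. The 9 tested ones, with Cd3d, Cd3g, Cd3e and Thy1 among them, had mean log2 values of 7.17, 7.95, 7.91 and 7.08 on wild-type arrays 1 to 4 and 7.28, 8.71, 10.05 and 8.22 on Irf4 null arrays 1 to 4. Their summed signal was 1244 to 2870 in wild type and 1486 to 11250 in Irf4 null, with the highest sum on Irf4 null array 3, and none of the 9 passed by limma (3 did before adjustment, at p below 0.05). Cd3d, a subunit of the T cell receptor complex, read 141, 259, 332 and 159 on the 4 wild-type arrays, against 223, 647, 2516 and 442 on the 4 Irf4 null arrays. The 4 arrays lowest for Cd28 were the 4 Xist-high arrays. No tested T cell marker was at 0, and the part of these markers in the Cd28 values was not tested beyond the covariate fit, which pools all other-cell markers. With the markers of other cells as a covariate the log2 fold change of Cd28 was -0.10 ± 0.38 (adjusted p = 0.95), with the Xist-high term 0.14 (adjusted p = 0.929), and within the Xist-high arrays -0.44 (adjusted p = 0.793).

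**Figure D4:**
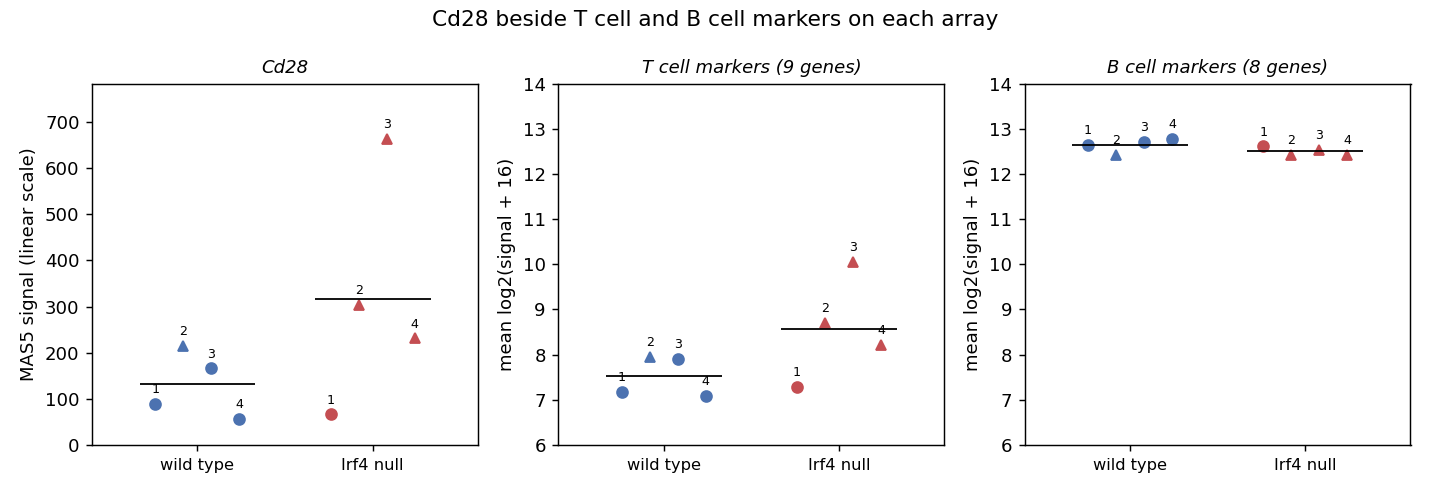
Cd28 signal (linear scale, from 0), the mean log2(signal + 16) of 9 T cell markers and that of 8 B cell markers on every array (vertical axes from 6 to 14). Irf4 null array 3 is highest for Cd28 and for T cell markers. B cell markers lie between 12.42 and 12.77, with the Xist-low arrays below the Xist-high arrays.

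Of the relatives and ligands of CD28, 5 of 7 listed were tested and 0 passed by limma (3 did before adjustment, at p below 0.05), with a list median of 0.31. The ligand gene Cd80 stood at 0.72 ± 0.20 on the log2 scale (adjusted p = 0.0874) and the inhibitory receptor gene Btla at -0.26 ± 0.08 (adjusted p = 0.0982). Of 7 tested genes among the other syndecans and the enzymes that build heparan sulphate, the sugar that syndecans carry, 0 passed by limma (1 did before adjustment, at p below 0.05). Sdc3, a syndecan best known from neurons, stood at 0.86 ± 0.24 (adjusted p = 0.0843), opposite in sign to Sdc1, and the epimerase gene Glce at -0.17 ± 0.11 (adjusted p = 0.47).

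Other genes of the plasma cell program were tested for 21 of 26 listed. Of these 6 fell by limma, Irf4 itself among them, none rose and 15 did not pass, with a list median of -0.10. At an unadjusted p below 0.05, 8 were lower, those called included, and 1 was higher. Igha fell by 6.80 ± 0.40 and Jchain by 6.00 ± 0.47, both to signals of 15.8 to 58.9, and Ighg3, an immunoglobulin G heavy chain gene, by 1.08 ± 0.15 (limma, adjusted p = 2.4e-05, 8.0e-05 and 0.00273). The Irf4 null means of Igha (34.4) and Jchain (43.6) lie below or near the dimmest level tested, so the sizes are uncertain: over the alternatives they ran from -8.20 to -5.81 and from -7.66 to -5.15. The remaining pair, named after their values were seen, are Cd93, a surface glycoprotein (limma, adjusted p = 0.0431), and Cxcr4, the receptor that holds plasma cells in bone marrow (adjusted p = 0.0361). Under the Xist-high term Cxcr4 did not pass (adjusted p = 0.111), while the interleukin 6 receptor gene Il6ra did (-1.25, limma, adjusted p = 0.0308). The count stayed at 6, but with a different member. Il6ra read 1243 on wild-type array 2 against 667 to 796 on the other wild-type arrays. It did not pass in the main fit (limma, adjusted p = 0.0963).

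Genes that Blimp-1 is known to repress were tested for 13 of 15 listed. By limma 3 fell, none rose and 10 did not pass, with a list median of -0.09. At an unadjusted p below 0.05, 4 were lower, those called included, and 1 was higher. The germinal centre repressor gene Bcl6 fell by 0.78 ± 0.07, Fcer2a, the low-affinity IgE receptor, by 1.17 ± 0.17 and Bach2, a repressor that holds back plasma cell formation, by 0.58 ± 0.08 (limma, adjusted p = 0.00028, 0.003 and 0.00352). Under the Xist-high term the same number, 3, fell.

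**Figure D5:**
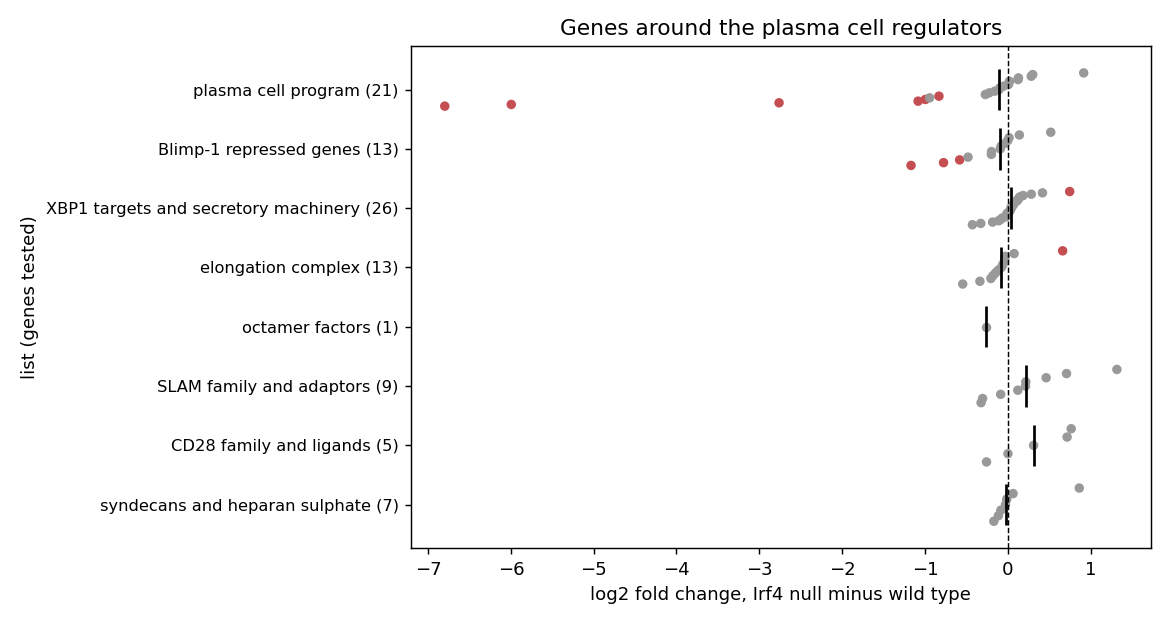
Log2 fold changes (horizontal axis, Irf4 null minus wild type) of the other genes by list; each point is a gene at its brightest probe set, red marks an adjusted p below 0.05 and the black bar the list median. The leftmost points of the plasma cell program are Igha at -6.80 and Jchain at -6.00, and every list median lies between -0.26 and 0.31.

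The genes whose values over the 8 arrays were most like those of the fallen members were found by Pearson correlation of log2 values at 1 probe set per gene. For Sdc1 they were Slc25a15, an ornithine carrier of mitochondria (r = 0.996), the zinc finger gene Vezf1 (r = 0.992) and Nid1, which encodes nidogen of basement membranes (r = 0.992). For Eaf2 they were the calcium channel gene Cacna1e (r = 0.974), Gdap2 (r = 0.974) and the choline transporter gene Slc44a1 (r = 0.973). Nid1 went from a mean signal of 578 to 251 and Cacna1e from 999 to 359. These are descriptions over 8 arrays, chosen from 11802 genes, and each of these genes was also lower in mean signal in Irf4 null.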

How the data were processed

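The authors deposited linear intensities, a signal for every probe set of each array, and the submitters' processing notes name MAS5 without a version or scaling target. After trimming 2% of probe sets at either end, every array's mean signal is 500.003, so no scaling was added. Medians lay between 76.9 and 92.2, and the number of arrays limits precision. Names came from the platform's annotation (34958 with 1 symbol, 932 with several, 9211 unnamed here), and 34754 symbols were brought up to date by gene identifier in the RefSeq table of GRCm38.p6.

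After 64 control probe sets were left out, log2(signal + 16) was taken and the lowest 40% by mean were dropped, which left 27022. The added 16 makes folds of dim probe sets smaller. Irf4 null was compared with wild type in limma 3.58.1 (R 4.3.3; lmFit, then eBayes with trend), adjusting p by Benjamini-Hochberg over all 27022 and a threshold of 0.05; the fit was tested on simulated data. A gene is given by its brightest tested single-gene probe set. Xist-high means an Xist signal over 1000. Named beside the 8 genes and Irf4 are, per list, up to 4 called genes with the smallest adjusted p, or 2 where none passed, and for each called member the 3 genes most like it. Members, lists and alternatives were chosen with earlier results of these data known. Of the marker lists, T cell, NK cell and B cell markers counted 0, 1 and 1 called of 9, 7 and 8; neutrophil, other myeloid, and erythroid and platelet markers 0, 0 and 1 of 9, 12 and 9. Alternatives covered the pseudocount, the filter, scaling, the variance model, array weights, a replicate block, the Xist-high term and both subsets, the mean of markers of other cells, each array left out, a stricter threshold and the mean of a gene's probe sets. Figures were drawn with matplotlib 3.10.9.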

Additional observations from a re-analysis of the deposited data

Results flagged for a closer look

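Within each genotype, 28 groups of 4 arrays (14 tested probe sets) were searched for an array that stands far from the other 3, and 4 were found, where chance gives about 5% of groups. Prdm1 read 878 on wild-type array 2, against 168 to 191 on the other 3. Eaf2 read 524 on the same array, against 271 to 283, and 47.2 on Irf4 null array 2, against 89.0 to 94.7. The Xbp1 probe set 1420011_s_at read 1975 on Irf4 null array 3, against 2402 to 2483.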

How the results depend on the processing

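Sdc1 and Eaf2 kept a negative sign in all 23 alternatives run for each, and both fell out of the test when the lowest 60% of probe sets were dropped, which left 0 member probe sets called. Member probe sets called lower numbered 2 within Xist-low arrays and 3 to 4 with each array left out; Sdc1 was -2.01 within Xist-low arrays. Prdm1 passed with the marker covariate (-1.34), a mean that among wild-type arrays was high on wild-type array 2 alone. Within Xist-low arrays Prdm1 was at -2.02, with wild-type array 2, its outlying array, as the lone wild-type array. Without that array Prdm1 stood at 0.038. Signs turned for genes that were not called, with causes not tested: within Xist-high arrays Xbp1 (0.012, against -0.35 within Xist-low arrays; other probe sets 0.10 and 0.12, against -0.49 and -0.43), Pou2af1 (0.19) and Cd28 (-0.44, second probe set -0.22); with array weights Pou2af1 (0.00073); with the marker covariate Cd28 (-0.10, second probe set -0.00073). With each array left out, Prdm1 ran from -0.72 to 0.038, Xbp1 from -0.16 to 0.017 (other probe sets -0.21 to 0.029, -0.15 to 0.064 and -0.20 to 0.11), Pou2af1 from -0.086 to 0.035 and Slamf7 from -0.94 to -0.52. Over all probe sets, 543 higher and 407 lower became 355 and 200 without a variance trend, 1001 and 745 with array weights, 193 and 129 within Xist-high arrays, 62 and 55 within Xist-low arrays, 351 and 241 with the marker covariate, 213 and 117 at a threshold of 0.01, and 283 to 1297 and 183 to 875 with each array left out (most without wild-type array 2); 256 were lower with the Xist-high term. Of the genes in the context lists 2 were higher and 9 lower; 1 was higher without a filter, without a trend, with the Xist-high term or the marker covariate, 4 with array weights, 0 within either Xist subset or at a threshold of 0.01, 1 to 7 with an array left out, and 4 were lower within Xist-low arrays (7 to 12 with an array left out). Replicate numbers did not pair the arrays throughout: same-numbered arrays deviated with correlations of 0.237, 0.277, -0.03 and -0.081. The best match was the same-numbered Irf4 null array for wild-type arrays 1 and 2, and Irf4 null array 1 for wild-type arrays 3 and 4. Each best match lay within the same Xist set. With the replicate block 4 member probe sets were lower, and Sdc1 (adjusted p = 0.00324) and Eaf2 (adjusted p = 0.0117) passed. No detection calls were available to set signal against background.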
